A study of Mus musculus with 2 samples.

Results

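Type 1 vomeronasal receptors are the pheromone receptors encoded by the *Vmn1r* genes, and the measurements below describe where peaks of a Dux-type transcription factor lay around these genes. The family was taken as every gene in the RefSeq table for GRCm38.p6 (the assembly of mm10) whose symbol is *Vmn1r* followed by a number, which gave 231 genes of 49997 in the table. Of these, 230 were protein-coding, among 21896 protein-coding genes in all. Positions on the sequenced chromosomes were given for 229 members. The remaining pair, *Vmn1r186* and *Vmn1r187*, had coordinates at 94186 and 148877 bp, ahead of the first peak of chromosome 7 at 3092060 bp, and was set aside as placed outside the assembled chromosome.

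The data came from chromatin immunoprecipitation followed by sequencing (ChIP-seq) in C2C12, a widely used mouse myoblast line. The cells were a monoclonal line with the transgene MMH, codon-altered, which carries the DNA-binding homeodomains of mouse Dux and the carboxy terminus of human DUX4, and they had been given doxycycline at 2 ug/ml for 18 h to switch it on. Each of 2 libraries was made from such induced cells, 1 with antisera to human DUX4 (MO488, MO489) and 1 control labelled anti-HA. The design text of the series gives the control antibody as GFP, and this conflict was not settled. With 1 library per group and a single clone, no value below has a replicate check, no test was made between libraries, and each interval covers counting error only. The peak caller kept 26253175 of 32659686 antisera fragments and 23412256 of 40115471 control fragments after duplicate removal, and the authors' deposited list held 51356 peaks. Expression was not measured in these files, so neither the muscle identity of the cells nor receptor transcription could be read from them.

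Type 1 receptors are G-protein-coupled receptors with their coding sequence in a single exon, carried by sensory neurons in the apical layer of the vomeronasal organ. Each neuron transcribes as a rule a single receptor gene and passes the signal on through the G protein subunit Gnai2 and the channel Trpc2. In rodents the family has grown by repeated local duplication, so that its genes stand in dense arrays of similar copies. Dux, whose homeodomains are in the chimera, is a transcription factor of the early embryo.

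The genes were short, with a median annotated length of 924 bp (range 870 to 33695 bp), against 17722 bp for other protein-coding genes. For 201 of the 231 the length was a multiple of 3, so most of these gene models are coding sequence alone and the annotated start need not be a transcription start. With neighbours at most 1 Mb apart joined, the 229 placed genes formed 8 clusters of 8 to 86 genes, which held 221 members, besides 2 pairs and 4 single genes. The largest was the chromosome 7 cluster from *Vmn1r91* to *Vmn1r183*, with 86 genes between 20101158 and 24055691 bp.

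Many promoters of the largest cluster were copies or near copies of another, and 2 of them are printed to show what is repeated. RefSeq promoter windows for GRCm38.p6, from 250 bases before to 50 after the annotated start, were on hand for 205 of the 231 members. For some members, among them *Vmn1r14*, *Vmn1r28*, *Vmn1r30* and *Vmn1r63*, the window lies inside the gene span used for peak counting. The first window below was identical, in all its 300 bases, in the 6 genes *Vmn1r111*, *Vmn1r118*, *Vmn1r131*, *Vmn1r138*, *Vmn1r166* and *Vmn1r257*. The second was identical in the 3 genes *Vmn1r112*, *Vmn1r139* and *Vmn1r157*. Both are written 5′ to 3′ on the strand of the gene, and the capitals mark a match to a loose form of the DUX4 site, TAA and AATCA separated by 3 free bases, searched on both strands. The windows lie at chr7:20703167-20703466 (minus strand) and chr7:20770935-20771234 (plus strand).
Vmn1r111: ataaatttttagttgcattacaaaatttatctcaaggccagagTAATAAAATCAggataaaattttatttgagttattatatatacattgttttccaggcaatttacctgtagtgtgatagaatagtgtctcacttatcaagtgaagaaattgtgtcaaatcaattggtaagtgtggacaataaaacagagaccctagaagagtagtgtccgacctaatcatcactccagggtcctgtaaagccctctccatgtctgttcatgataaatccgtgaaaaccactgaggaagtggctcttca
Vmn1r112: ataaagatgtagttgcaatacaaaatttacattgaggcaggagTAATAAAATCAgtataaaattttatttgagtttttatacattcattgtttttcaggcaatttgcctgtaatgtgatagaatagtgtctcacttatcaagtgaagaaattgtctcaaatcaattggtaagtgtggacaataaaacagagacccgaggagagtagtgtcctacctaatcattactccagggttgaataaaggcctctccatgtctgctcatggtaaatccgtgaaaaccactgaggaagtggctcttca

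The family as a whole had few peaks close by. A peak summit lay inside or within 5 kb of either end of 28 of the 229 placed members (12.2%, exact binomial 95% interval 8.28 to 17.2%). Among all 21519 placed protein-coding genes the share was 43.9%. The 2 shares are not like for like, since a short gene offers a smaller window. Counted per length, the merged windows of the members held 33 peaks in 2.64 Mb, or 12.5 peaks per Mb (exact Poisson 95% interval 8.60 to 17.5). The autosomes and X together had 20 peaks per Mb, and the windows of all protein-coding genes also had 20.

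Within the windows, most of the shortfall per length lay in the largest cluster. Of its 86 genes 1 had a peak (1.16%, interval 0.0294 to 6.31%), at 1.06 peaks per Mb of windows (0.0268 to 5.90). The other 143 members had a peak in 27 cases (18.9%, 12.8 to 26.3%), at 18.8 peaks per Mb (12.9 to 26.6), an interval that holds the 20 of the autosomes and X. Over whole spans, the other clusters of 8 or more genes had 7.60 (*Vmn1r32* to *Vmn1r39*) to 26.4 (*Vmn1r40* to *Vmn1r54*) peaks per Mb. All but the highest of these were below 20, though the interval of each held 20. No interval was computed over these spans pooled. The difference between the largest cluster and the other members was not tested. Their density intervals do not overlap, but these intervals cover counting error only. The cluster was set apart after its value was seen. Most of its genes lie in a stretch without a called peak, which cannot be told apart from a stretch without mapped reads. Whether binding differs therefore cannot be read from these intervals.

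**Figure D1:**
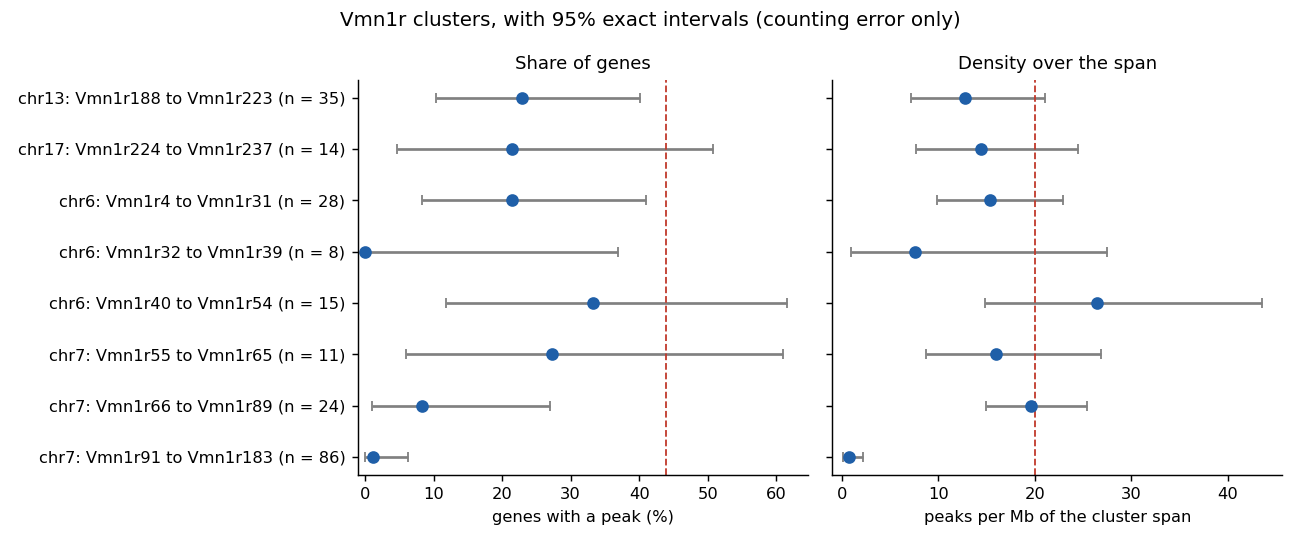
Share of genes with a peak (left, percent of genes with a summit inside or within 5 kb) and peaks per Mb over the whole cluster span (right) for the 8 clusters, with exact 95% intervals. Dashed lines mark the 43.9% of all protein-coding genes and the 20 peaks per Mb of the autosomes and X; the largest cluster lies at 1.16% and 0.757 peaks per Mb.

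Over its whole span of 3.96 Mb the largest cluster held 3 summits, or 0.757 per Mb (interval 0.156 to 2.21), where chromosome 7 had 17 per Mb. Their pileups, the numbers of antisera fragments over each summit, were 27, 44 and 23, and all 3 lay in the last part of the array, at 23653026, 23838448 and 24042088 bp. From the last summit before the cluster, at 20068953 bp, to the first of these, 3.58 Mb had no called peak. That was the second longest stretch between neighbouring summits on the autosomes and X, after 5.30 Mb on the X chromosome. It contained 92 protein-coding genes, and 75 of these were *Vmn1r* genes, together with 12 *Vmn1r* pseudogenes. Peaks were again found on both sides, 8 in the 1 Mb before the cluster and 13 in the 1 Mb after it.

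The only member of this cluster with a peak was *Vmn1r176*, a receptor gene at 23834812 to 23835726 bp. Its peak spanned chr7:23838202-23838571, with the summit 2722 bp upstream, a pileup of 44 (exact Poisson interval 32.0 to 59.1) and 8.98-fold enrichment over the local background. At *Vmn1r172* the nearest summit, of pileup 27, lay 5290 bp away and so just beyond the limit. For the 86 genes the median distance to the nearest summit was 778 kb and the largest was 1774 kb, against a median of 20.2 kb over the other 143.

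**Figure D2:**
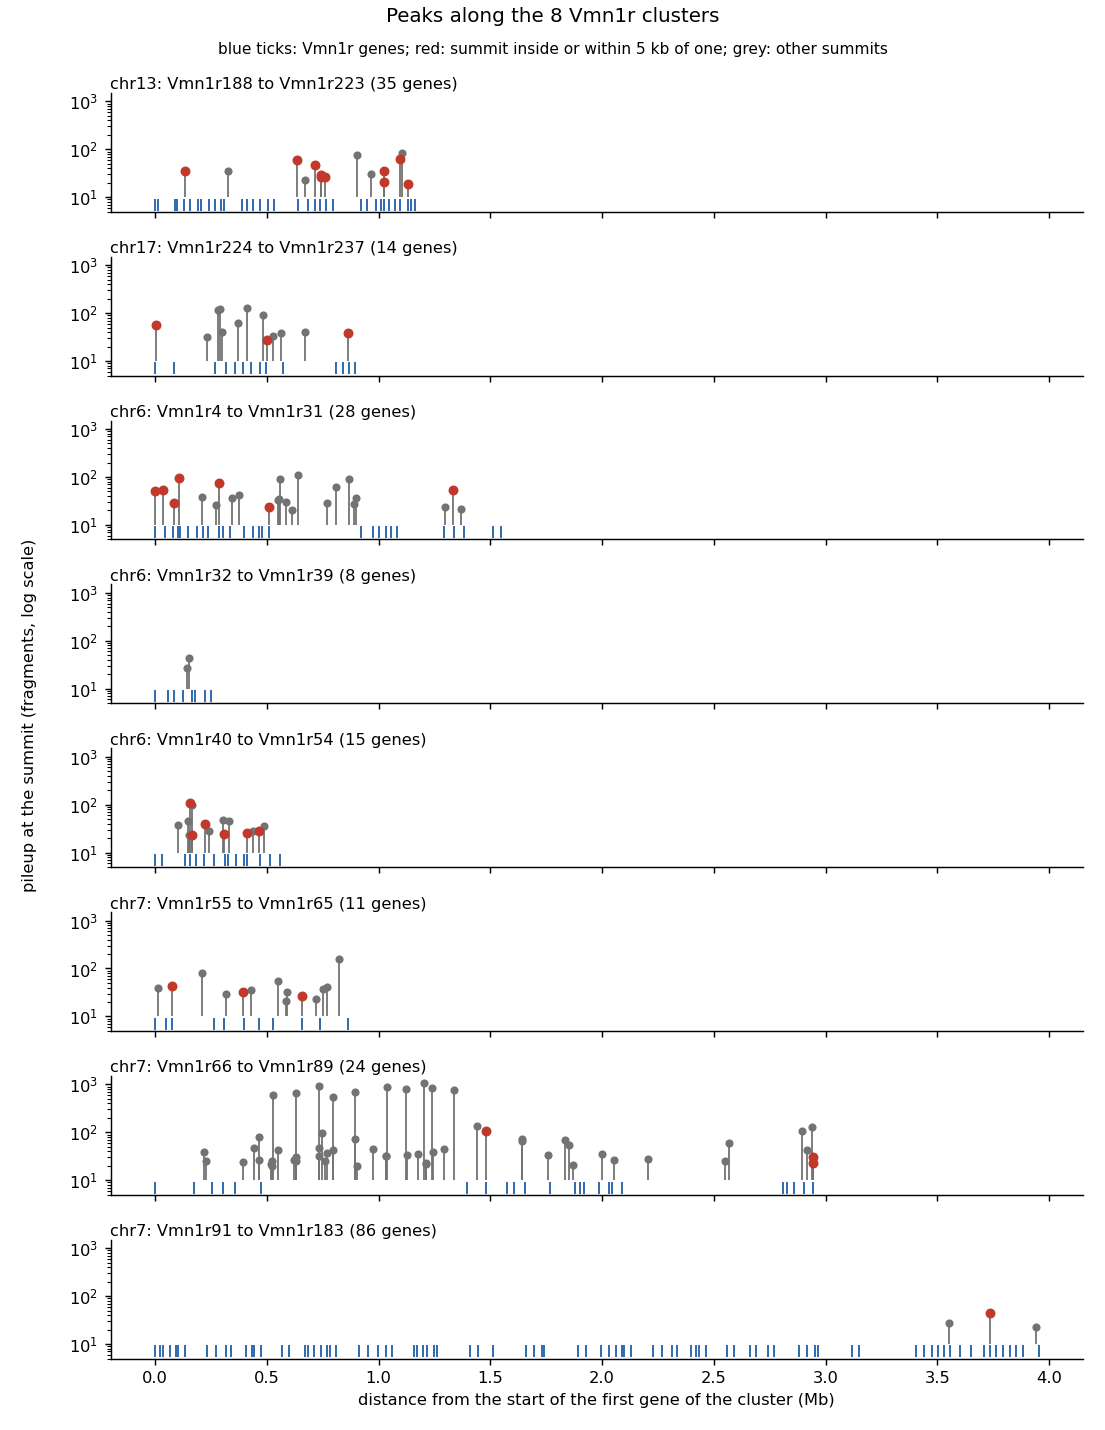
Peaks along the 8 clusters, with distance from the start of the first gene on the horizontal axis (Mb) and pileup on a log vertical axis (fragments); blue ticks are *Vmn1r* genes, red points are summits inside or within 5 kb of one and grey points are other summits. The bottom panel, the 86-gene cluster, has 3 summits, all near its right end, and the cluster from *Vmn1r66* to *Vmn1r89* has summits of up to 1050 fragments away from the receptor genes.

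How much sequence a member shares with other genes was measured as its longest exact run, on either strand. The run is shared between its promoter window and the window of another gene that it does not overlap. That gene need not be a member, and the run of 26 bases of *Vmn1r216* was shared with *Dgkh*. In the largest cluster the median run was 300 bases, the whole window, over 83 genes, and 73 of them (88.0%) shared a run of 100 bases or more. Their 83 windows held 51 distinct sequences. In the other clusters the medians ran from 0 (no run of 20 bases or more) in the chromosome 17 cluster to 71 bases in the cluster from *Vmn1r55* to *Vmn1r65*. Reads from identical copies cannot be assigned to 1 of them, and the header of the peak list names its input alignments as filtered, by a rule not given in the sources used here. The part of such filtering in the empty stretch was not tested.

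Outside the largest cluster, 14 of the 25 members with a peak and a promoter window (56.0%) shared a run of 50 bases or more, and 23 of 97 without a peak did so (23.7%). These shares pool clusters with different run lengths and were not tested. The window shows the sequence around the gene start alone, and most of the peaks lay outside it. The windows of *Vmn1r47* and *Vmn1r48* were identical, and the peak at *Vmn1r47* lay 4177 bp upstream of the gene, outside that window. *Vmn1r45* and *Vmn1r51*, which share 182 bases, each had a peak.

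**Figure D3:**
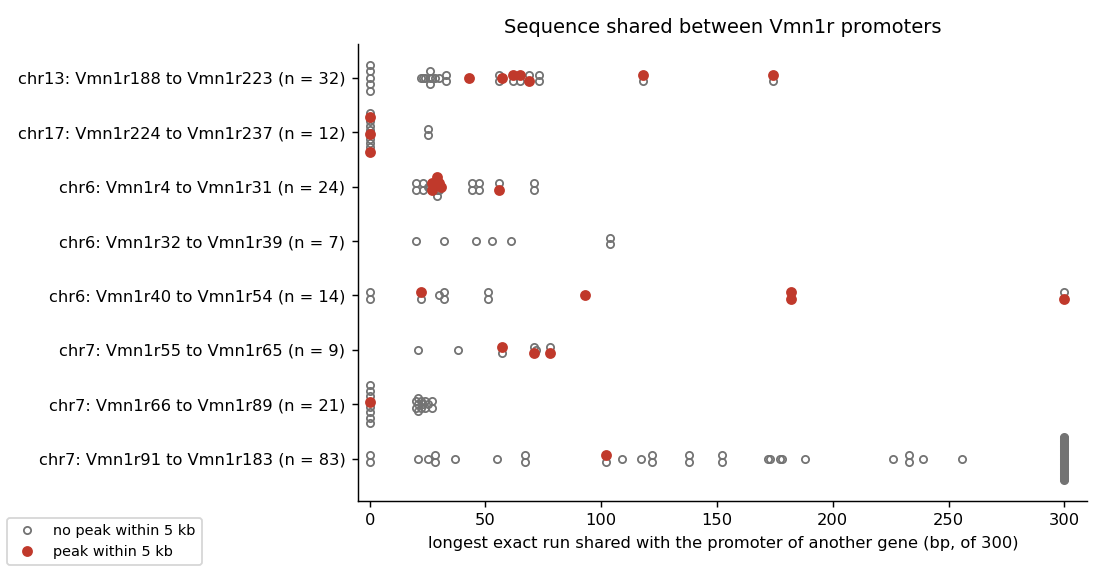
Longest exact run that each member's promoter window of 300 bases shares with the window of another gene (horizontal axis, bp; 0 means no run of 20 bases or more), by cluster, 1 point per gene. Filled red points are genes with a peak inside or within 5 kb. In the bottom row, the largest cluster, the stack at 300 holds 53 of 83 genes, none of them with a peak. Only 1 of the 86 genes of that cluster has a peak at all.

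The matches printed above were common in the largest cluster. The loose DUX4 pattern was found in 43 of its 83 windows (51.8%) against 2 of 122 windows of other members (1.64%) and 1.03% of all 32851 promoter windows. The median share of G and C bases was 36% in members' windows and 52.7% in all windows, so the last comparison is not like for like. All 43 read TAATAAAATCA, in 30 cases at position -207 from the annotated start, and they lay in 22 distinct sequences, so they are copies and not separate cases. None of the 45 members with a match had a peak within 5 kb. That count cannot show whether the match matters, since 43 of the 45 lay in the largest cluster, where 1 of 86 genes had a peak. In that cluster the nearest summit to a gene with a match was 32.2 kb away. A different measure, a summit inside the window itself, was taken for windows of all other genes. With this match 23 of 293 had one (7.85%), against 1.10% of those without it.

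The spelling of these copies lies outside the usual DUX4 consensus, which is narrower at the middle positions and was searched by name on both strands after the matches had been seen. It occurred in 0 of the 205 members' windows (interval 0 to 1.78%) and in 0.128% of all windows, but in 12 of 379 windows with a summit inside (3.17%). The Dux-type pattern, TGATT and AATCA separated by 1 free base, searched on both strands, was likewise in 0 of 205, in 0.0335% of all windows and in 7 of the 379 with a summit (1.85%). Both shares over all windows lie within the interval of 0 to 1.78%. The patterns are so rare that 0 of 205 does not show that members lack them more than other genes. A match is a description of letters and not of binding.

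Peaks near members were of ordinary to low strength. Over the 33 peaks the pileup ranged from 19 to 110 with a median of 36 (order-statistic 95% interval 27 to 48), beside a median of 41 over all peaks and over peaks near other protein-coding genes. Fold enrichment had a median of 6.51 (range 3.99 to 22.1), against 8.02 for all peaks, and 8 of the 33 (24.2%) were under 5-fold, against 16.5% of all peaks. None of the 33 exceeded 123 fragments, the value that the strongest 10% of peaks exceed by pileup. The local background derived from the control lay more than 0.02 above its most frequent value, 4.01 fragments, at 5 of the 33 (15.2%), against 20.6% of all peaks. At the 33 it reached 7.29.

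The 3 highest pileups belonged to *Vmn1r43*, *Vmn1r73* and *Vmn1r7*. At *Vmn1r43*, on chromosome 6, a peak of 110 fragments (90.4 to 133) and 22.1-fold enrichment lay 2219 bp downstream, at chr6:89866928-89867585, and a second of 23 lay 4431 bp upstream. At *Vmn1r73*, on chromosome 7, a peak of 108 (88.6 to 130) lay 2917 bp upstream. At *Vmn1r7*, on chromosome 6, a peak of 96 (77.8 to 117) lay 3573 bp upstream. The intervals of these 3 overlap each other, so their order is not resolved, and each also overlaps the interval of the next peak, 74 (58.1 to 92.9) at *Vmn1r13*.

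**Figure D4:**
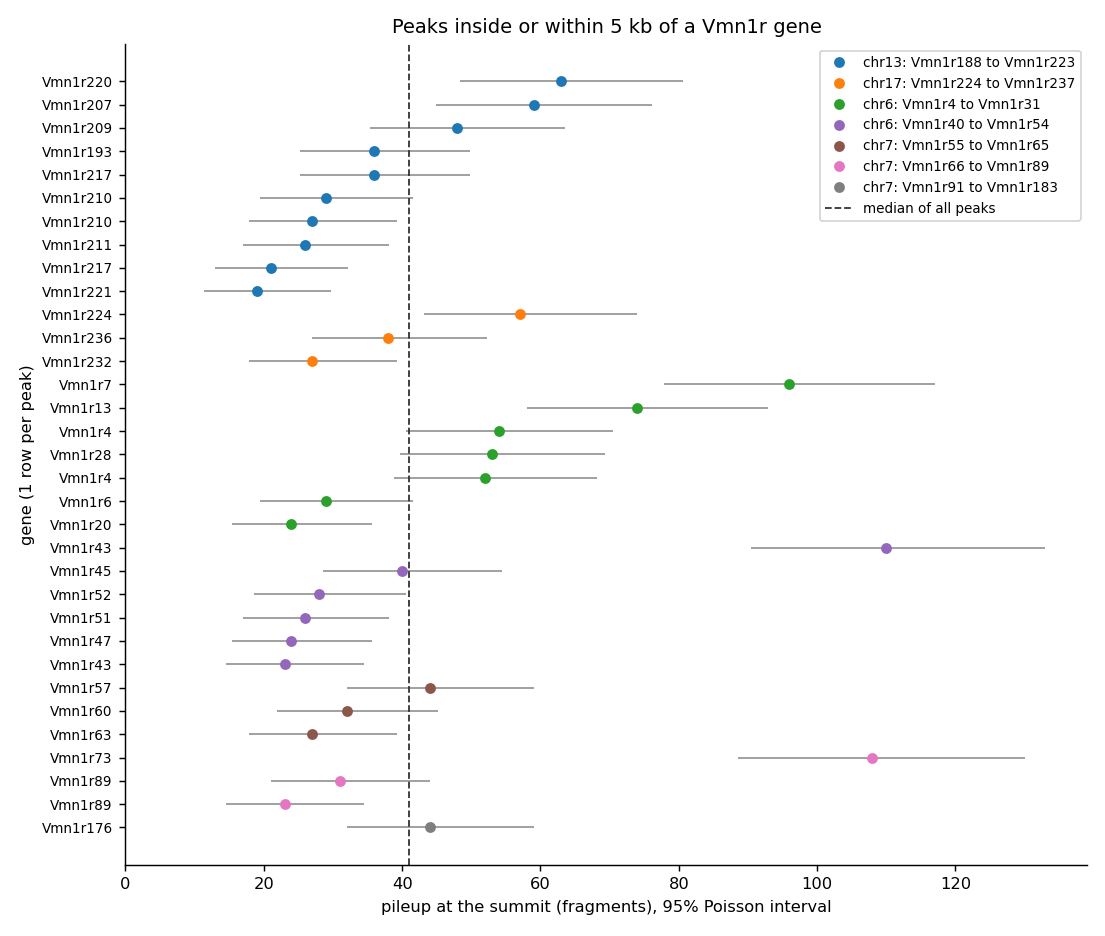
Pileup at the summit (horizontal axis, fragments) of each of the 33 peaks inside or within 5 kb of a *Vmn1r* gene, 1 row per peak, coloured by cluster, with exact 95% Poisson intervals and a dashed line at 41, the median of all peaks. *Vmn1r43*, *Vmn1r73* and *Vmn1r7* stand at 96 to 110 fragments, and most of the others lie between 19 and 63.

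On chromosome 13, in the cluster from *Vmn1r188* to *Vmn1r223*, 8 of 35 genes had a peak (22.9%). The density was 26.2 peaks per Mb of windows (12.6 to 48.3) and 12.8 over the whole span (7.16 to 21.1), where chromosome 13 had 21.3. The highest pileups were 63 at *Vmn1r220*, 59 at *Vmn1r207* and 48 at *Vmn1r209*, each downstream of its gene. *Vmn1r217* had 2 peaks, of 36 and 21, both downstream, and *Vmn1r210* had 2, of 29 and 27. The remaining values were 36 at *Vmn1r193*, 26 at *Vmn1r211* and 19 at *Vmn1r221*, the lowest of the family. The *Vmn1r211* summit lay nearer to a pseudogene, *Vmn1r-ps114*, at 1300 bp, than to the receptor gene, at 4241 bp. Its longest stretch without a summit was 0.308 Mb.

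On chromosome 6 the 3 clusters differed in their counts. In the cluster from *Vmn1r40* to *Vmn1r54* a peak lay at 5 of 15 genes (33.3%, 11.8 to 61.6%), the highest share of any cluster. Besides *Vmn1r43*, these were *Vmn1r45* with 40 fragments inside the gene, *Vmn1r52* with 28, *Vmn1r51* with 26 and *Vmn1r47* with 24. In the cluster from *Vmn1r4* to *Vmn1r31* it was 6 of 28 (21.4%). After *Vmn1r7* and *Vmn1r13*, whose peak lay 530 bp upstream, came *Vmn1r4* with 54 downstream and 52 upstream, *Vmn1r28* with 53, *Vmn1r6* with 29 and *Vmn1r20* with 24. The upstream peak of *Vmn1r4* lay inside *Nt5c3*, which encodes a nucleotidase. The third, from *Vmn1r32* to *Vmn1r39*, had a peak at 0 of 8 genes (0 to 36.9%) and 2 summits in its span of 0.263 Mb. The intervals of all 3 shares overlap.

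In the chromosome 17 cluster, from *Vmn1r224* to *Vmn1r237*, 3 of 14 genes had a peak (21.4%), with 57 fragments downstream of *Vmn1r224*, 38 upstream of *Vmn1r236* and 27 upstream of *Vmn1r232*. Higher peaks of the same span lay away from the receptors, the highest of 127 fragments 14837 bp from *Vmn1r230*. On chromosome 7, the cluster from *Vmn1r55* to *Vmn1r65* had a peak at 3 of 11 (27.3%), with 44 fragments 264 bp downstream of *Vmn1r57*, 32 downstream of *Vmn1r60* and 27 inside *Vmn1r63*. The 8 genes outside the clusters had none within 5 kb, which at 0 of 8 allows a share of up to 36.9%.

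The chromosome 7 cluster from *Vmn1r66* to *Vmn1r89* surrounds the *Zscan4* genes, markers of the early embryo. Over the span of 2.96 Mb there were 58 summits, 19.6 per Mb (14.9 to 25.4), with pileups up to 1050. The 2 highest, 1050 and 924 (the latter 188 bp from *Zscan4c*), lay 191730 and 256019 bp from the nearest receptor gene. A peak lay within 5 kb of 2 of the 24 receptors (8.33%, 1.03 to 27.0%), *Vmn1r73* and *Vmn1r89*, where the 2 pileups were 31 and 23. The receptor windows, 0.266 Mb of the span, held 3 summits, or 11.3 per Mb (2.33 to 33.0), an interval that holds the 19.6 of the span.

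Peaks showed no preferred side of the receptor genes. Of the 33, 13 lay upstream, 14 downstream, 2 inside the gene and 4 outside genes whose strand was not given. The summit was within 1 kb of the gene or inside it in 9 cases, between 1 and 2 kb away in 4 and farther in 20. The member was the nearest gene of any kind in 29 of the 33. The other 4 summits were those in *Nt5c3* and near *Vmn1r-ps114* described above, the summit at *Vmn1r28*, 525 bp from the pseudogene *Vmn1r-ps19*, and the summit at *Vmn1r52*, inside the pseudogene *Gm20426*. Just inside the limit of 5 kb lay the summit at *Vmn1r6*, at 4930 bp with a pileup of 29, and just outside it that of *Vmn1r83*, at 5254 bp with 27.

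In the promoter windows, a difference from promoters in general was not detectable with 205 windows. These held 172 distinct sequences, and 83 of the windows lay in the largest cluster, so they are not 205 separate cases as the intervals take them to be. They also differ from all windows in their share of G and C bases, as given above. A summit fell inside 1 of the 205 promoter windows (0.488%, interval 0.0123 to 2.69%), that of *Vmn1r63*, against 1.15% of all promoter windows. That window lies inside the gene span, which runs from 5802345 to 5826229 bp, and not at its 5′ end at 5826229 bp. A peak interval touched 2 windows (0.976%, interval 0.118 to 3.48%, against 2.17%), the other being *Vmn1r51*. Both windows are printed because they are the only ones of the family under a peak, and the capitals mark the bases that the peak covers, 259 in *Vmn1r63* (chr7:5805396-5805695, minus strand) and 19 in *Vmn1r51* (chr6:90122393-90122692, plus strand). The peaks had 27 and 26 fragments, both below the median of 41, and neither window held any of the patterns searched.
Vmn1r63: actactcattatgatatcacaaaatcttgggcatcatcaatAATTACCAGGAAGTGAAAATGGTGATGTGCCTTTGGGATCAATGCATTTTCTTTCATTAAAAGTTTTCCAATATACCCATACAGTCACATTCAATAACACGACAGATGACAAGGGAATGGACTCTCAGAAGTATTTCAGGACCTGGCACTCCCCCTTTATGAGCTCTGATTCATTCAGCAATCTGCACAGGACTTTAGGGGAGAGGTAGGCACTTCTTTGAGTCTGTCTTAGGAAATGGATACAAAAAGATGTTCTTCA
Vmn1r51: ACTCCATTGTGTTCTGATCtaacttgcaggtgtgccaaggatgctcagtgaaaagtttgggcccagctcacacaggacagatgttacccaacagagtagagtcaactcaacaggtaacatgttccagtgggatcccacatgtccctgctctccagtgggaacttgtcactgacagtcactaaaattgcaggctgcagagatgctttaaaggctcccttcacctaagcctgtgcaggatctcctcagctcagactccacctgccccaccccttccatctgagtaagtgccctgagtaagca

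The counts were set beside those from moved peaks. All summits were moved together by 100, 200, 500 and 1000 kb in either direction, and the genes with a peak were counted again for each of these 8 offsets. The count of 28 for the family lay between the lowest, 25, and the highest, 37, of the moved counts (median 27), and the median pileup of 36, pooled over clusters, between 34 and 42. For the largest cluster alone the deposited count was 1 and the moved counts were 0 to 3. That comparison cannot show whether 1 of 86 is low, since offsets of at most 1000 kb leave most of its windows within the same stretch of 3.58 Mb without a summit. Without that cluster the deposited count was 27 and the moved counts were 24 to 36. By cluster, 8 genes on chromosome 13 compared with 3 to 10, 3 on chromosome 17 with 2 to 6, 5 from *Vmn1r40* to *Vmn1r54* with 0 to 5, and 6 from *Vmn1r4* to *Vmn1r31* with 4 to 12. On chromosome 7, 3 genes from *Vmn1r55* to *Vmn1r65* compared with 0 to 3, and 2 from *Vmn1r66* to *Vmn1r89* with 1 to 5. In the cluster from *Vmn1r32* to *Vmn1r39* the deposited count was 0 and the moved counts were 0 to 5. Median pileups by cluster lay outside the moved range in 3 clusters. They were 53 against 26 to 51.5 from *Vmn1r4* to *Vmn1r31*, 27 against 30 to 98 from *Vmn1r40* to *Vmn1r54*, and 31 against 32 to 382 from *Vmn1r66* to *Vmn1r89*. The first of these was above its range and the others below, and each median rests on 3 to 7 peaks. Elsewhere the deposited medians lay within the range, at 32.5 (28 to 59) on chromosome 13, 38 (24 to 63) on chromosome 17, 32 (27 to 125) from *Vmn1r55* to *Vmn1r65* and 44 (25 to 44) in the largest cluster. The offsets ignore which sequence is mappable, and no p-value was drawn from them.

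**Figure D5:**
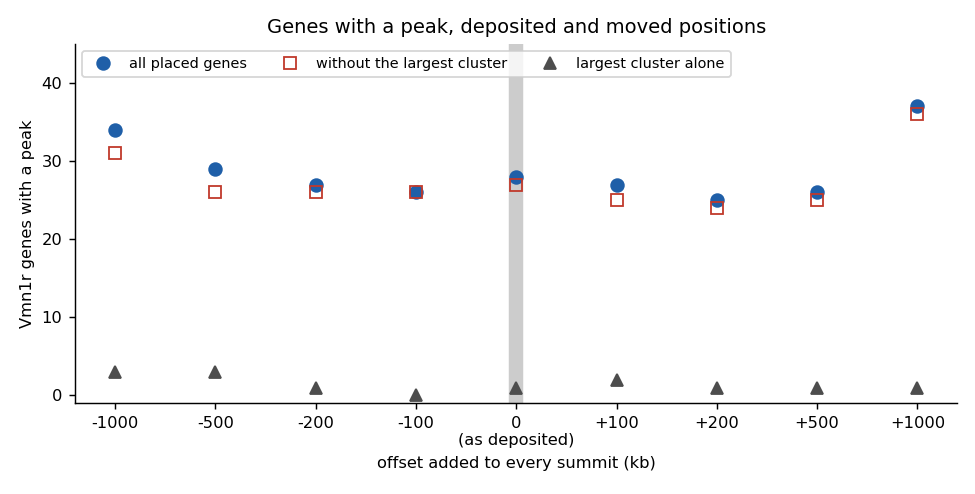
Number of *Vmn1r* genes with a peak (vertical axis) when every summit is moved by the offset on the horizontal axis (kb), for all 229 placed genes (blue), without the largest cluster (red squares) and for the largest cluster alone (grey triangles). The deposited positions, at 0, give 28, 27 and 1 genes, and the moved positions give 25 to 37, 24 to 36 and 0 to 3.

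Related families gave a scale for these values. Of 125 placed type 2 vomeronasal receptor genes (*Vmn2r*), the pheromone receptors of the basal layer of the organ, 30 had a peak (24%, interval 16.8 to 32.5%), at 8.69 peaks per Mb of windows (6.18 to 11.9). Of 1116 olfactory receptor genes (*Olfr*) 189 had one (16.9%, 14.8 to 19.3%), at 16.2 per Mb (14.0 to 18.5). Among 136 *Vmn1r* pseudogenes, which are not members, 16 had one (11.8%), at 12.3 per Mb (7.14 to 19.6). The interval of the *Vmn1r* genes, 8.60 to 17.5 peaks per Mb, overlaps all 3 of these. Without the largest cluster the value was 18.8 (12.9 to 26.6), and that interval does not overlap the one of the *Vmn2r* genes. This last comparison is not like for like. The cluster was left out after its value was seen, and no cluster was left out of the *Vmn2r* genes. The differences were not tested.

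Other genes of vomeronasal and olfactory neurons were read from a list of 37 genes for signalling, cell fate and surface partners. A peak lay inside or within 5 kb of 11 of them, and the partners of type 1 receptors in signalling, *Gnai2* and *Trpc2*, had none. The highest pileup, 267 (236 to 301), lay 4502 bp downstream of *H2-M10.2*, a class I molecule gene of the basal layer, and *H2-M10.4* had 114. *Gnao1*, the G protein subunit of basal neurons, had 4 peaks with up to 226 fragments inside the gene. *Adcy3*, an adenylyl cyclase of olfactory neurons, reached 158, *Ano2*, a chloride channel, 137, and the transcription factor gene *Meis2* 65. The others were *Atf5* (61), *Omp* (31), *Neurod1* (28), *Calr4* (25) and *Fpr-rs6* (21). The share of 43.9% over all protein-coding genes is the background for this count too.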

How the data were processed

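Both libraries were ChIP-seq of induced MMH cells, 1 per antibody label. BWA, MACS2 and mm10 appear in the submitters' processing notes. Peak calling by the authors used MACS 2.1.0.20151222 in paired-end mode, antisera against control, with a q-value limit of 0.01 and 1 fragment per position, per the file headers. The deposited pileup column is signal, namely antisera fragments over a summit. Each peak also has a deposited −log10 p-value and q-value. The deposited fold enrichment is a ratio to local background. That background was recovered from pileup and fold, taking 1 as added to both terms. A Poisson −log10 p recomputed from it lay within 1% of the deposited value for 100% of the 50104 peaks where it could be computed.

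Summits were assigned to RefSeq genes (Python 3.11.15, pandas 2.3.3, scipy 1.17.1), and the assignment was tested on simulated data. Genes given before 3 Mb on an autosome or X, where the sequence of this build begins, were treated as unplaced. Densities of chromosomes run from the first to the last summit. Shares have exact binomial, and densities and pileups exact Poisson, 95% intervals. The rule for named genes takes every member with a summit inside or within 5 kb, and those just inside and outside that distance. It also takes nearer genes at member peaks and listed genes of vomeronasal and olfactory neurons with a peak. Other genes were named after their values were seen. The members and lists were chosen with earlier results of these data known. Promoter sequences are RefSeq's for GRCm38.p6. Alternatives were other distances, stricter peak thresholds, overlap in place of summits, other member rules, other cluster gaps and removal of peaks with high background.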

Additional observations from a re-analysis of the deposited data

How the results depend on the processing

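The count of 28 members with a peak went with the distance allowed. It was 9 within 1 kb (3.93% of members, against 35.6% of protein-coding genes), 12 within 2 kb (5.24%, 37.9%), 75 within 20 kb (32.8%, 63.3%) and 2 in the gene body (0.873%, 32.8%). With the strongest 10% of peaks by −log10 p it was 0, against 9.03% of protein-coding genes. In the largest cluster the count of 1 became 0 within 1 kb, within 2 kb, inside genes only and among the strongest 10% of peaks, 2 within 10 kb and 4 within 20 kb; these settings for the cluster were chosen after seeing the data. The density of 12.5 peaks per Mb became 0 with the strongest 10% of peaks and 18.8 without the largest cluster, a setting chosen after seeing the data. The median of 36 fragments has its counterpart in a median fold enrichment of 6.51. The other 24 of 38 alternatives stayed within 1.5 times the count or within the interval of the value. They include 28 members at a −log10 q of 5 or more, 24 at 10 or more, and 21 or 11 clusters with gaps of 200 kb or 5 Mb in place of 14. No paired analysis was possible because there is 1 library per group and the peak list compares them once.

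The depth of 1 antisera library sets what could be called, and the lowest pileup of any peak in the list was 13 fragments. No control values outside peaks were at hand, so a stretch without peaks cannot be told apart from a stretch without mapped reads.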

Other observations

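The 2 highest summits in each of the 8 cluster spans, 16 in all, had a *Vmn1r* gene as their nearest gene in 8 cases, a pseudogene of the family in 3 and another gene in 5. The highest of the 3 beside a pseudogene, with 155 fragments and 31.1-fold enrichment, lay 3048 bp from *Vmn1r-ps46* and 37483 bp from *Vmn1r65*. The other 2, on chromosome 13, had 83 fragments 4559 bp from *Vmn1r-ps131* and 76 fragments 5135 bp from *Vmn1r-ps123*. The highest beside a receptor gene had 127 fragments, 14837 bp from *Vmn1r230*. These places were picked out after their values were seen.

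Of the 10 longest stretches between neighbouring summits on the autosomes and X, 6 lay on the X chromosome. The 3.58 Mb of the largest cluster was the only one that held *Vmn1r* genes, and none of the 10 held *Vmn2r* or *Olfr* genes. The next on an autosome measured 1.90 Mb, on chromosome 2.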
